A study of Mus musculus with 21 samples.

Results

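The genes described here are 10 members of the interleukin-1 (IL-1) family and of the inflammasome: Il1a, Il1b, Il18, Il1rn, Il1r2, Nlrp3, Pycard, Casp1, Casp4 and Gsdmd. They were selected by symbol, and each of the 2 deposited expression tables holds all 10 among its 54532 genes. RNA sequencing was done on primary brain microglia, the resident macrophages of the brain, from mice. The aging table holds 4 groups of 3 libraries each, labelled young WT, young Trem1-/-, aged WT and aged Trem1-/-, where WT is wild type. The other table holds 3 groups of 3 libraries each, all from adult mice: WT, 5XFAD, and 5XFADXTREM1+/-, which carries 5XFAD and is heterozygous for TREM1. 5XFAD mice carry transgenes for mutant human amyloid precursor protein and presenilin under a neuronal promoter and develop amyloid plaques. Trem1 encodes a receptor of myeloid cells that amplifies inflammatory signals. The labels give neither ages in months, nor the cell isolation, nor the deleted part of Trem1, and do not say that libraries came from separate animals, so the p-values measure only the spread between these samples, which may be technical.

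Reads counted on genes ranged from 8600878 to 19411434 per library in the aging table and from 9264999 to 18698707 in the adult table. Values below are the deposited normalized counts, reads divided by a size factor, and 3 reads correspond to between 2.06 and 4.51 normalized counts. Each table was normalized on its own, so levels are compared within a table only. Trem1 itself stood at 25.2, 7.65 and 8.74 normalized counts in the young WT libraries and at 89.4, 99.8 and 89.5 in the young libraries labelled Trem1-/-. It reached 269, 188 and 237 in aged WT and 124, 124 and 244 in the aged libraries labelled Trem1-/-. Trem1 was thus higher, not lower, in the young libraries labelled as the knockout, and counts per gene cannot show whether the remaining reads lie outside the deleted part, so the genotype is written below as labelled. In adult WT, Trem1 was 62.7, 0 and 30.2, in 5XFAD 13.7, 32.0 and 36.8, and in 5XFADXTREM1+/- 25.1, 18.1 and 38.3. The 0 means that no read was counted, which does not show that the transcript was absent.

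The IL-1 family includes the secreted cytokines IL-1alpha, IL-1beta and IL-18, which drive fever, leukocyte recruitment and lymphocyte activation. IL-1alpha and IL-1beta bind the same signalling receptor, while the antagonist encoded by Il1rn blocks that receptor and the decoy receptor encoded by Il1r2 captures the ligands without signalling. IL-1beta and IL-18 are made as inactive precursors. Sensors such as NLRP3 assemble with the adaptor ASC, encoded by Pycard, into an inflammasome that activates caspase-1, which cuts both precursors and gasdermin D, whose pores release the cytokines and can kill the cell. Caspase-11, encoded by Casp4, cuts gasdermin D in response to cytosolic bacterial lipopolysaccharide. In the brain, microglia are a main source of IL-1, and neutrophils and monocytes also make it.

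In the mouse genome (GRCm38, GENCODE M21 annotation), Il1a (chr2:129299610-129309972) and Il1b (chr2:129364570-129371139) lie on the minus strand 54597 bases apart, and Il1rn is on the plus strand of the same chromosome (chr2:24336853-24351494). Casp1 (chr9:5298517-5307265) and Casp4 (chr9:5308828-5336783) are neighbours separated by 1562 bases, and Il18 is elsewhere on that chromosome (chr9:50554827-50581840), all on the plus strand. The other members are Il1r2 (chr1:40074079-40125231, plus), Nlrp3 (chr11:59541568-59566956, plus), Pycard (chr7:127989708-127993867, minus) and Gsdmd (chr15:75862327-75867408, plus), and all 10 are annotated as protein-coding. The coordinates span whole genes with exons, introns and untranslated regions. On the opposite strand, Gm14023 shares 222 exonic bases with Il1a, Il1bos 25 with Il1b and Gm45205 485 with Pycard. The strandedness of the counting is not given in the sources used here, so reads in those stretches cannot be assigned to one of the overlapping genes.

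The promoters of 4 members are printed because Il1b, Il1r2 and Il1rn passed the test in the same comparison and Il1a, the neighbour of Il1b, did not. RefSeq (GRCm38.p6) gave start sites for 9 of the 10 members. Each line holds the 250 bases before the start, 5′ to 3′ on the gene's own strand, and capitals mark matches to the searched motifs.
Il1a (chr2:129309973-129310222, minus strand): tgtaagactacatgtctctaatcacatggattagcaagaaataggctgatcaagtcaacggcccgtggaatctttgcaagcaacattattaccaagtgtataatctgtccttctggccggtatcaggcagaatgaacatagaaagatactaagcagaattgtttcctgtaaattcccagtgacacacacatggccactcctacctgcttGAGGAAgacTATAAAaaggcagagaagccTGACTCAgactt
Il1b (chr2:129371140-129371389, minus strand): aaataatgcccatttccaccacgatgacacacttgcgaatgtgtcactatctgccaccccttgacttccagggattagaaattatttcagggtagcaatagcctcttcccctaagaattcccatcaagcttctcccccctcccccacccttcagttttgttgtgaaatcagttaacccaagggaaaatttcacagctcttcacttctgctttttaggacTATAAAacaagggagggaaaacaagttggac
Il1rn, first of 3 starts (chr2:24336610-24336859, plus strand): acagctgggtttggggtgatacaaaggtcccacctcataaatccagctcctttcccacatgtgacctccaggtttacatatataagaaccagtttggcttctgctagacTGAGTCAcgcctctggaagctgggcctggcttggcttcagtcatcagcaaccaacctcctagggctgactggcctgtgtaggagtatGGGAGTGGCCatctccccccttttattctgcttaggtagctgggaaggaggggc
Il1r2 (chr1:40085843-40086092, plus strand): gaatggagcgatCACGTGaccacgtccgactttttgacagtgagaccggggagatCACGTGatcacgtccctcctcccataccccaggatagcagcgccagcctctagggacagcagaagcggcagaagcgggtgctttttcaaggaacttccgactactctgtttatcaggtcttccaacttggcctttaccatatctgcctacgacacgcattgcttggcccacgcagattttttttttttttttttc

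The search covered TATAAA on the gene's strand and, on both strands, TGANTCA (AP-1), GAGGAA (PU.1 and other ETS factors), GGGANNNNCC (NF-kB), CACGTG (E-box) and the interferon-stimulated response element (ISRE). Among 32817 RefSeq promoters of the same length, 7.6%, 6.75%, 23.3%, 17.6%, 6.02% and 2.97% hold a match, in that order. Il1a and Il1b each have TATAAA, which starts 32 and 31 bases before the start site, so the pair shares this element although their levels differed in pattern. The Il1a window also holds TGACTCA at 12 to 6 bases and GAGGAA at 41 to 36 bases before the start. The first Il1rn promoter has TGAGTCA at 141 to 135 and GGGAGTGGCC at 54 to 45 bases, and the Il1r2 promoter has CACGTG at 238 to 233 and again at 195 to 190 bases. The RefSeq start used for Il1r2 lies inside its GENCODE span (chr1:40074079-40125231, plus strand), and the bases before that span were not searched. No motif searched is present in the windows of all 3 members that rose together with age in WT. Of the other members, both Casp4 starts share GGGATTTCCC, which lies 92 to 83 bases before the first of them. These matches describe letters in the windows and were not tested for binding.

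Aging in WT microglia separated the cytokine Il1b and the IL-1 inhibitors from the rest. Il1b, Il1rn and Il1r2 rose between young WT and aged WT, Gsdmd fell slightly, and Il1a, Il18, Nlrp3, Pycard, Casp1 and Casp4 did not pass the test. The 3 that rose did so by 7.02-fold, 5.32-fold and 12.6-fold, and the decrease of Gsdmd was 1.30-fold. By limma (adjusted p under 0.05 over all 16086 genes tested), 4 of the 10 members were called, 3 higher and 1 lower, against a background of 8.67% of all genes tested, 6.43% higher and 2.24% lower. The members' median log2 difference was 0.19, beside -0.01 for all genes tested. edgeR and DESeq2, run on the recovered reads, each called 4 members as well. In bulk samples a change in the number of cells of a type and a change in RNA per cell cannot be told apart.

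**Figure D1:**
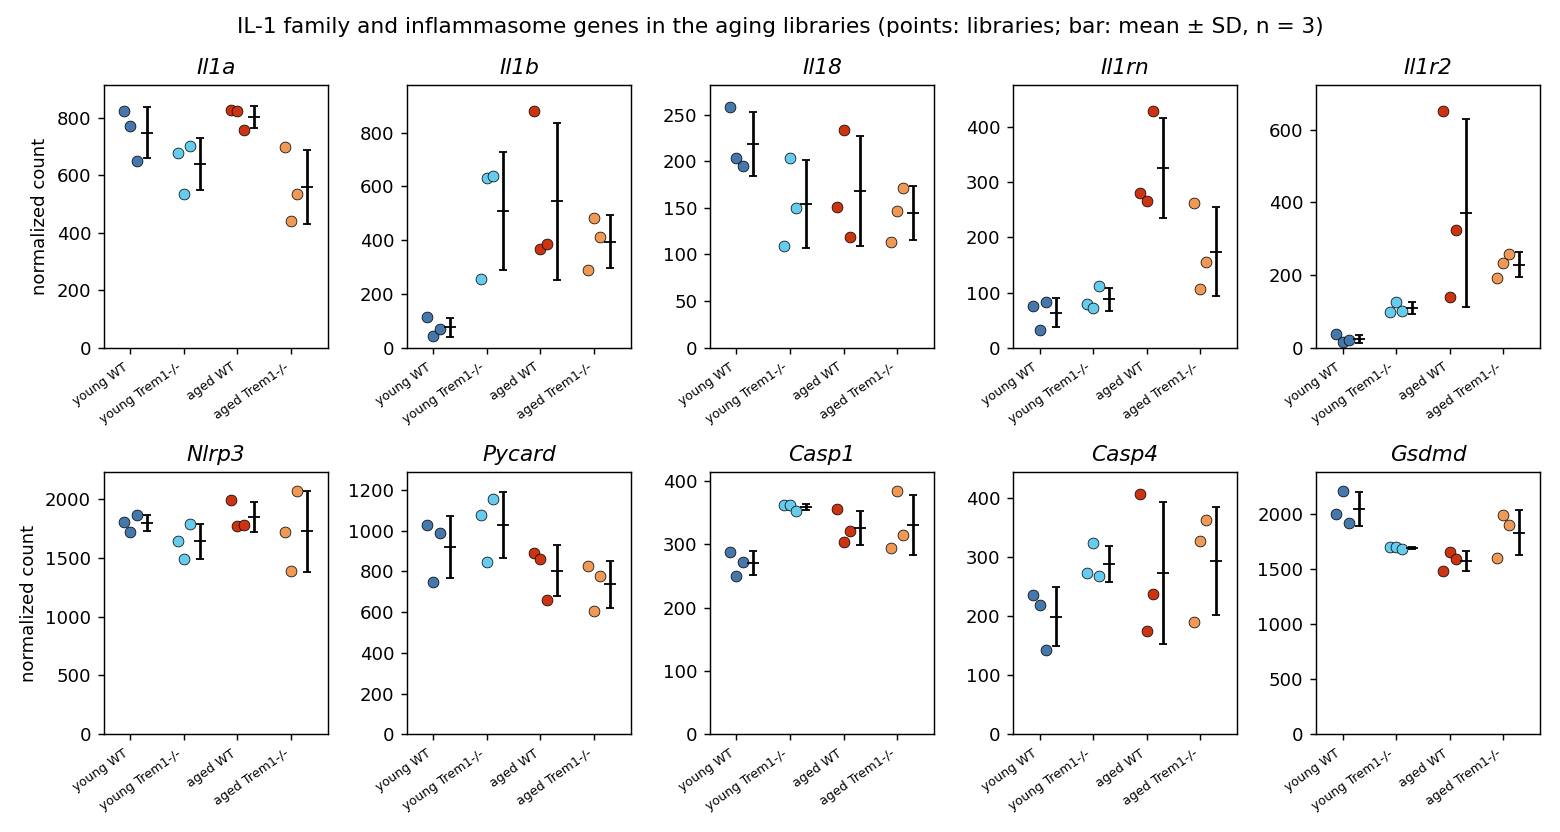
Normalized counts (vertical axes, from 0) of the 10 members in the 4 groups of the aging table, with points for libraries and a bar for the mean ± SD (n = 3). Il1b, Il1rn and Il1r2 are lowest in young WT, while Nlrp3 stays between 1385 and 2068 in all 12 libraries.

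Il1b is the cytokine precursor that the inflammasome activates. Its young WT libraries held 115, 43.7 and 69.0 normalized counts (75.8 ± 36.0, SD, n = 3) and its aged WT libraries 880, 366 and 387 (544 ± 291, SD, n = 3). Every aged WT library was above every young WT library, and aged WT replicate 1 stood more than 2-fold above the other 2 of its group. The log2 difference was 2.81 ± 0.45 (SE, limma adjusted p = 0.00141), and it lay between 2.40 and 3.16 with any 1 library left out, always past the threshold. Its neighbour Il1a, whose product is active without cleavage by caspase-1, held 825, 772 and 651 in young WT and 827, 826 and 758 in aged WT. These ranges overlap, and the log2 difference of Il1a was 0.11 ± 0.18 (95% confidence interval -0.26 to 0.47, limma adjusted p = 0.792). Il18, the other inflammasome-dependent cytokine, held 258, 203 and 195 in young WT and 151, 234 and 119 in aged WT, again overlapping (log2 difference -0.43, interval -1.08 to 0.23).

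Both inhibitors of IL-1 signalling rose with age in WT. Il1r2, the decoy receptor, went from 37.3, 16.4 and 21.0 normalized counts in young WT to 650, 139 and 324 in aged WT, with no overlap and a wide spread among the aged libraries. Its log2 difference was 3.66 ± 0.44 (SE, n = 3 against 3, limma adjusted p = 7.33e-06), and 3.12 to 4.23 with 1 library left out. Il1rn, the receptor antagonist, went from 75.6, 32.8 and 82.1 to 280, 266 and 430, and its groups did not overlap either. Its log2 difference was 2.41 ± 0.39 (SE, limma adjusted p = 0.000273), and 1.9975 to 2.65 with 1 library left out.

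No gene of the inflammasome core passed the test with age in WT. Nlrp3, the sensor, held 1801, 1720 and 1857 normalized counts in young WT and 1988, 1766 and 1773 in aged WT, for a log2 difference of 0.04 (95% confidence interval -0.24 to 0.31). Pycard, the adaptor, held 1026, 747 and 988 against 891, 859 and 659 (log2 difference -0.20, interval -0.55 to 0.16). For both genes the groups overlapped, and the intervals leave out a 2-fold difference in either direction. Casp1 held 288, 250 and 272 against 356, 303 and 320, so its aged WT libraries were all above the young WT ones, but the log2 difference of 0.27 ± 0.20 (SE) did not pass the test. Casp4 held 236, 219 and 142 against 406, 174 and 237, which overlap (log2 difference 0.39, interval -0.23 to 1.02).

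Gsdmd, the pore-forming substrate of these caspases, moved the other way from Il1b. It held 2003, 2214 and 1924 normalized counts in young WT and 1481, 1660 and 1590 in aged WT, with no overlap. The log2 difference was -0.37 ± 0.12 (SE, limma adjusted p = 0.0456). That call was lost with any of 8 libraries left out (each of the 3 young WT and the 3 young Trem1-/- libraries and aged WT replicates 1 and 3), with adjusted p up to 0.191. It was also lost when low genes were kept (limma adjusted p = 0.116), without trend and robust estimation (0.132) and with only the 2 groups in the fit (0.0718).

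**Figure D2:**
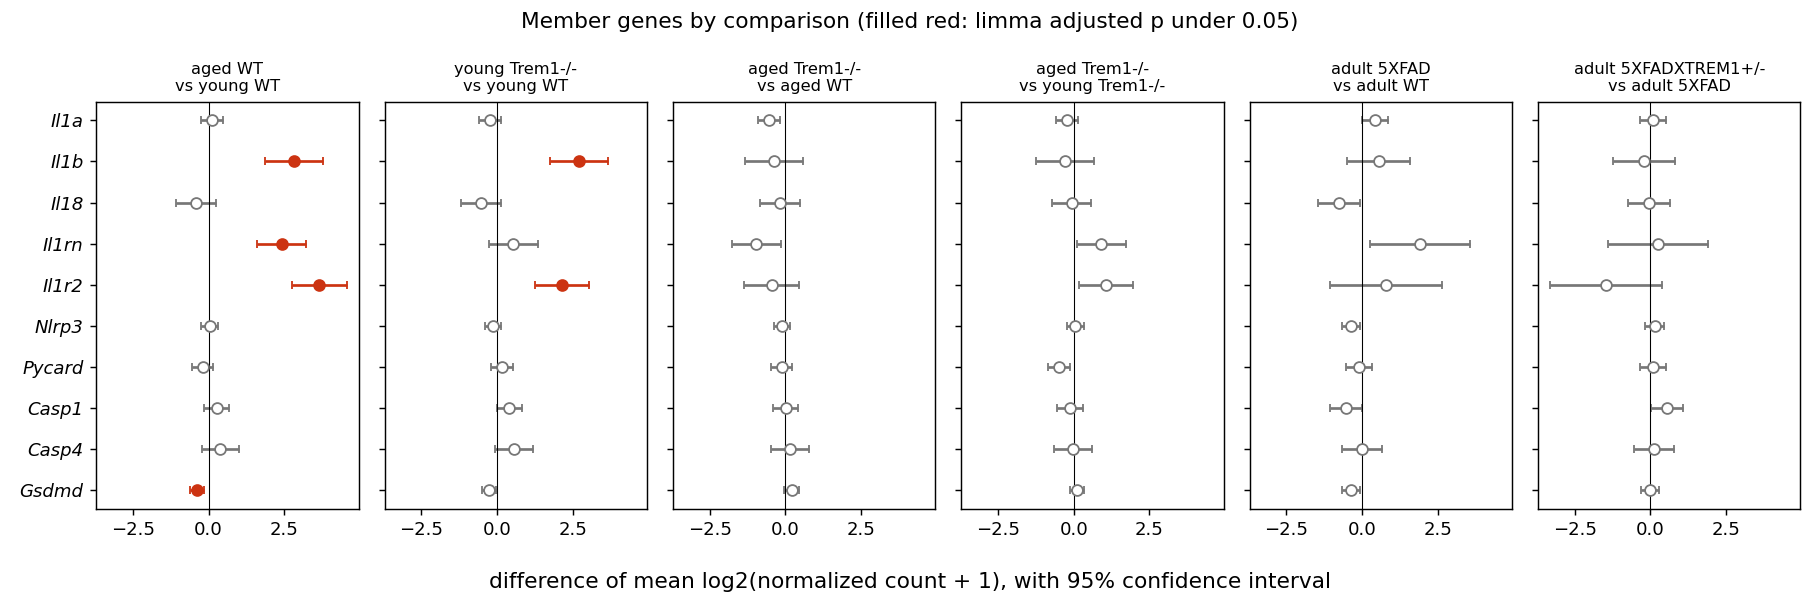
Log2 difference of each member (horizontal axis, with its 95% confidence interval) in 6 comparisons, one panel each, where filled red points passed the limma threshold. The filled points are Il1b, Il1rn, Il1r2 and Gsdmd for aged WT against young WT, and Il1b and Il1r2 for young Trem1-/- against young WT.

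In young mice, Il1b and Il1r2 were higher in the libraries labelled Trem1-/- than in WT, by 6.58-fold and 4.44-fold. These 2 were the only members called by limma (2 of 10, both higher), where 2.58% of all genes tested were called and 2.36% were called higher, and edgeR and DESeq2 each called 2. The members' median log2 difference was 0.28, beside -0.01 for all genes tested. This comparison and the aging comparison in WT share the young WT libraries.

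Il1b held 255, 630 and 638 normalized counts in young Trem1-/-, all above the young WT range of 43.7 to 115 (log2 difference 2.72 ± 0.45, SE, limma adjusted p = 0.00449). Il1r2 held 97.0, 127 and 101, all above the young WT range of 16.4 to 37.3 (log2 difference 2.15 ± 0.44, SE, limma adjusted p = 0.00537). Both calls held with each library left out in turn, with adjusted p up to 0.0378 and 0.0457, but not without trend and robust estimation, where the limma adjusted p was 0.0526 for Il1b and 0.104 for Il1r2. Il1rn held 78.3, 72.6 and 112, which overlapped young WT, and its log2 difference of 0.54 ± 0.39 (SE, limma adjusted p = 0.693) did not pass. The antagonist was thus not called where the cytokine and the decoy receptor were, and whether Il1rn differed from them was not tested.

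Several other members had groups that did not overlap in this comparison but did not pass the test. The share of all genes tested whose groups did not overlap was not counted, so lack of overlap is only a description. Casp1 held 362, 362 and 353 in young Trem1-/- against 250 to 288 in young WT (log2 difference 0.41 ± 0.20, SE, limma adjusted p = 0.44). Casp4 held 273, 323 and 268 against 142 to 236 (log2 difference 0.56 ± 0.30, SE). Gsdmd held 1698, 1705 and 1687 against 1924 to 2214 (log2 difference -0.27 ± 0.12, SE, limma adjusted p = 0.334). Il1a (680, 535 and 703), Il18 (109, 203 and 150), Nlrp3 (1644, 1486 and 1783) and Pycard (1077, 844 and 1155) overlapped young WT.

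Between the aged groups, no member was called. Limma called 0 of 10 members, where 0% of all genes tested were called, and edgeR and DESeq2 called 0 members each. An unadjusted p under 0.05 was found for 1545 of 16086 genes tested, of which 2 were members. Those 2 were Il1a, which held 699, 443 and 537 in aged Trem1-/- against 758 to 827 in aged WT (log2 difference -0.55 ± 0.18, SE, limma adjusted p = 0.369), and Il1rn, with 262, 106 and 155 against 266 to 430 (-0.96 ± 0.39, SE, limma adjusted p = 0.437). In both cases the groups did not overlap, but genes without overlap were not counted over all genes here either. Il1b held 288, 483 and 411 in aged Trem1-/- and Il1r2 191, 234 and 259, within or overlapping the aged WT ranges. Their log2 differences of -0.37 and -0.45 have intervals of -1.34 to 0.59 and -1.35 to 0.46, and become 0.03 and 0.09 without aged WT replicate 1, the library with the highest Il1b and Il1r2 of the table. The members' median was -0.15 and that of all genes tested -0.02.

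The remaining members did not differ past the threshold between the aged groups. Aged Trem1-/- libraries held 114, 147 and 171 normalized counts of Il18, 1714, 1385 and 2068 of Nlrp3, and 824, 607 and 778 of Pycard. They held 294, 385 and 314 of Casp1, 190, 326 and 363 of Casp4, and 1605, 1989 and 1903 of Gsdmd. All 6 overlapped aged WT, and Nlrp3 had its widest spread of any aging group here.

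Among the libraries labelled Trem1-/-, aging gave no called member either. Limma called 0 of 10, where 1.71% of all genes tested were called, and edgeR and DESeq2 called 0 members each. An unadjusted p under 0.05 was found for 2440 of 16086 genes tested, of which 3 were members. These were Il1r2 (log2 difference 1.07 ± 0.44, SE, limma adjusted p = 0.236), Il1rn (0.91 ± 0.39, SE, limma adjusted p = 0.263) and Pycard (-0.48 ± 0.17, SE, limma adjusted p = 0.169). Il1r2 was 191 to 259 in aged against 97.0 to 127 in young Trem1-/- libraries, without overlap, whereas Il1b was 288 to 483 against 255 to 638. The log2 difference of Il1b was -0.28, with an interval of -1.24 to 0.68 that leaves out the difference of 2.81 seen in WT. The members' median was -0.05, beside 0.00 for all genes tested.

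The difference between the aging effects in the 2 labelled genotypes was itself tested as an interaction. It passed for Il1b, at -3.09 ± 0.63 log2 units (SE, limma adjusted p = 0.0213), and for Il1r2, at -2.60 ± 0.62 (SE, limma adjusted p = 0.0235). The age difference was thus lower in the libraries labelled Trem1-/- than in WT, at -0.28 against 2.81 for Il1b and 1.07 against 3.66 for Il1r2. The interaction was called for 2 of 10 members, both lower, where 2.54% of all genes tested were called and 2.14% were called lower, and edgeR and DESeq2 called 2 each. The members' median was -0.36, beside -0.02 for all genes tested. The young WT libraries were the low ones for both genes, while the other 3 groups overlapped for Il1b. Il1rn (-1.50 ± 0.56, SE, limma adjusted p = 0.172) and Gsdmd (0.48 ± 0.16, SE, limma adjusted p = 0.137) did not pass.

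These interaction calls depended on single libraries. With 1 library left out, between 0 and 2 members were called, the estimates ranged from -3.53 to -2.69 for Il1b and from -3.17 to -2.06 for Il1r2, and the largest limma adjusted p was 0.0685 and 0.0952. The call of Il1b was lost without young WT replicate 2 or 3 or aged Trem1-/- replicate 2 or 3, and that of Il1r2 without young WT replicate 2 or 3, young Trem1-/- replicate 2 or 3, aged WT replicate 1 or 3 or aged Trem1-/- replicate 2. Without trend and robust estimation no member passed, at limma adjusted p = 0.124 for Il1b and 0.176 for Il1r2.

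The balance of ligands and inhibitors within a library was read from ratios of levels per kilobase of exon. Il1b per Il1a was 0.144, 0.0586 and 0.11 in young WT, 0.389, 1.22 and 0.94 in young Trem1-/-, 1.1, 0.458 and 0.529 in aged WT and 0.426, 1.13 and 0.792 in aged Trem1-/-. Il1b thus stayed well under Il1a in young WT and came near or passed it in at least 1 library of each other aging group. Il1rn per Il1b was 0.227, 0.258 and 0.41 in young WT and 0.106, 0.0398 and 0.0603 in young Trem1-/-, without overlap. In aged WT it was 0.11, 0.251 and 0.382, which overlaps young WT. The antagonist transcript was below the cytokine transcript per length in all 21 libraries of both tables. This order rests in part on length, with 5535 exonic bases for Il1rn and 1907 for Il1b. As a ratio of counts, Il1rn per Il1b was 1.19 in young WT replicate 3 and 1.11 in aged WT replicate 3. It was below 1 in all other libraries.

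**Figure D3:**
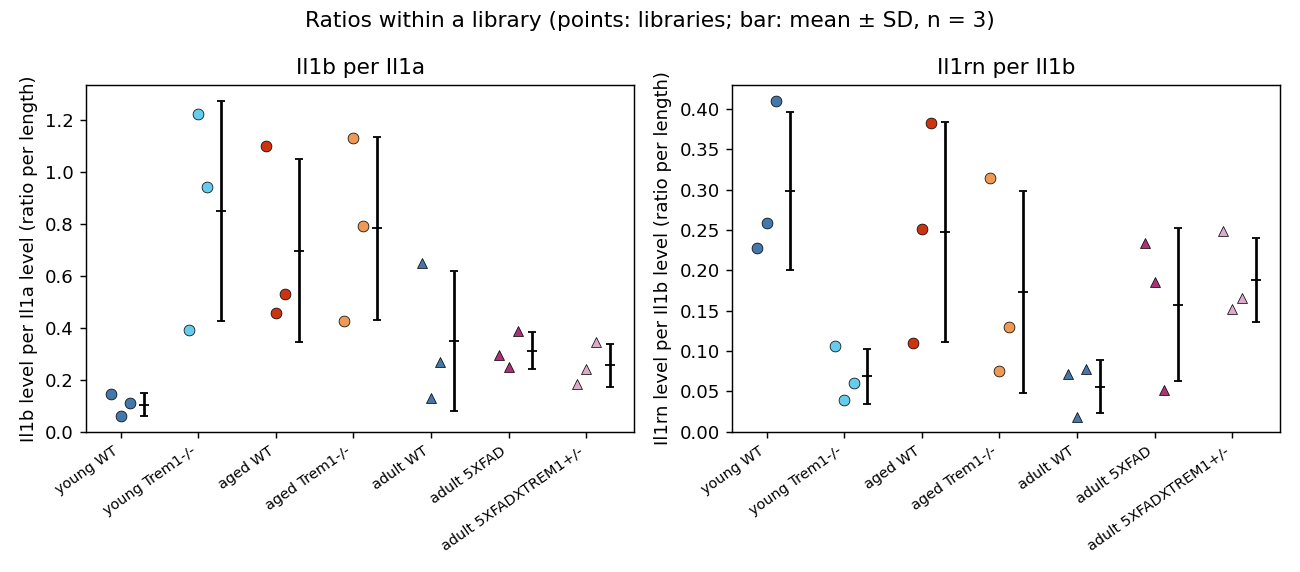
Ratios of levels per kilobase of exon within each library (vertical axes, from 0), with circles for the aging table, triangles for the adult table and bars for the mean ± SD (n = 3). Il1b per Il1a is at most 0.144 in young WT, and Il1rn per Il1b is at most 0.106 in young Trem1-/-.

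Ordered by level per kilobase of exon, Gsdmd, Nlrp3 and Il1a had the 3 highest means among the members in every group of both tables. The length was that of all annotated exons of a gene merged, 3800 bases for Pycard and 1974 for Il1a, and the order depends on it. Before division by length, young WT held 1026, 747 and 988 normalized counts of Pycard and 825, 772 and 651 of Il1a. In adult WT the third place was within the spread, with Il1a at 270 ± 18.1, Pycard at 266 ± 16.8 and Il18 at 254 ± 25.3 normalized counts per kilobase (SD, n = 3). The same held in young Trem1-/- (Il1a 324 ± 46.2, Pycard 270 ± 42.6) and in aged WT (Il1a 407 ± 20.0, Il1b 285 ± 153). It also held in aged Trem1-/- and in 5XFAD. In young WT, Gsdmd, Nlrp3 and Il1a stood at 861 ± 63.2, 442 ± 17.0 and 379 ± 45.2 normalized counts per kilobase (SD, n = 3), followed by Pycard (242 ± 39.9), Il18 (212 ± 33.5) and Casp1 (180 ± 12.7). Of these, the neighbours Pycard and Il18 lay within their spreads of each other, and so did Il18 and Casp1. Casp4 (53.6 ± 13.4) and Il1b (39.8 ± 18.9) came next, and Il1r2 (13.05 ± 5.76) and Il1rn (11.5 ± 4.84) were lowest and did not differ beyond their spread. Il1b moved from 8th of the 10 in young WT to 4th in aged WT, at 285 ± 153 per kilobase, and to 5th in both groups labelled Trem1-/-. In aged WT and in both groups labelled Trem1-/-, Il1b lay within the spread of its neighbours in this order.

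Markers of neutrophils and monocytes moved with Il1b and its inhibitors, whereas those of some other cell types did not. The summed level of 15 neutrophil markers ranged from 17460 to 26209 normalized counts in young WT, from 38674 to 77763 in young Trem1-/-, from 82865 to 149757 in aged WT and from 68955 to 159551 in aged Trem1-/-. That of 10 monocyte markers ranged from 2454 to 5086, 14669 to 37767, 18008 to 34556 and 17073 to 21491 in the same order. Young WT was thus the lowest group for both lists, as it was for Il1b, Il1rn and Il1r2. No marker of either list was at 0 throughout a group, whereas the T cell marker Trbc2 was at 0 in all 12 libraries. The sum of 10 T and natural killer (NK) cell markers was 12.2 to 34.5 in young WT, 13.6 to 52.7 in young Trem1-/-, 52.2 to 82.3 in aged WT and 0 to 75.2 in aged Trem1-/-. Of these 10, only 1 was high enough to test, and it was not called with age in WT. The sum of 10 microglial markers went from 348585 to 391998 in young WT, to 329298 to 349428 in young Trem1-/-, 261629 to 296562 in aged WT and 253376 to 285186 in aged Trem1-/-. It was the largest of the sums in every library. The sum of 10 border macrophage markers was 10734 to 12296 in young WT and 12456 to 13671 in young Trem1-/-. It was 10114 to 12561 in aged WT and 10928 to 11208 in aged Trem1-/-. Of the 8 border macrophage markers tested, limma called 0 with age in WT. The sum of 6 B cell markers was 3086 to 3301 in young WT and 2389 to 2964 in young Trem1-/-. It was 1400 to 2969 in aged WT and 1867 to 2420 in aged Trem1-/-. The sum of 6 choroid plexus markers went from 6136 to 15298 in young WT and 2450 to 15120 in young Trem1-/-, to 27418 to 45551 in aged WT and 31702 to 41468 in aged Trem1-/-, so it was higher with age in both labelled genotypes and overlapped between the young groups. With age in WT, limma called 1 of these 6, Folr1, edgeR 5 and DESeq2 3, and all 6 had an unadjusted p under 0.05, as did 3501 of 16086 genes tested. The part of these markers in the results was not tested.

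Called marker genes followed the same contrasts. In aged WT against young WT, 14 of 15 neutrophil markers and 9 of 10 monocyte markers rose, led by Retnlg (log2 difference 3.33) and Ly6c2 (3.28), while 8 of 10 microglial markers fell, led by Siglech (-0.67). In young Trem1-/- against young WT, 5 of 15 neutrophil markers and 6 of 10 monocyte markers rose, with Cxcr2 at 2.30 and Ly6c2 at 3.02. The interaction was called, as lower, for 3 of 15 and 5 of 10. Genes of handling and immediate early response also rose, 3 of 12 in the first comparison and 4 of 12 in the second, with Klf2 at 1.78 and 1.72. Over all genes tested, 6.43% were called higher and 2.24% lower with age in WT. In young Trem1-/- against young WT 2.36% were called higher, and for the interaction 2.14% were called lower. With age in WT, the neutrophil count became 9 without young WT replicate 2 or 3 or aged WT replicate 3, the monocyte count 5 without aged WT replicate 1 or 3, and the microglial count 5 without young WT replicate 3. In young mice the neutrophil count became 3 without young WT replicate 3, any young Trem1-/- library, aged WT replicate 1 or aged Trem1-/- replicate 2, and the monocyte count 3 without replicate 2 of either group. The interaction counts lay between 2 and 5 for neutrophil markers, with 5 without aged WT replicate 2 or aged Trem1-/- replicate 1, and between 2 and 8 for monocyte markers, with 2 without aged Trem1-/- replicate 2 and 8 without young Trem1-/- replicate 1. The handling count with age in WT lay between 2 and 5, with 5 without young Trem1-/- replicate 1. In young mice it lay between 1 and 5, with 2 without young WT replicate 3 or young Trem1-/- replicate 2 and 1 without young Trem1-/- replicate 3.

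The order of libraries within a group was compared between these genes and the marker sums. Young Trem1-/- replicate 1 had the highest neutrophil sum of its group, 77763, and the lowest monocyte sum, 14669, and it was also the lowest of its group for Il1b and for Il1r2. Aged WT replicate 1 had the highest monocyte sum of its group, 34556, and the highest Il1b and Il1r2. Over the 7 groups of both tables, the 3 libraries ranked alike for Il1b and the monocyte sum in 4 groups and for Il1b and the neutrophil sum in 1 group. Il1a, which was not called in any comparison, also ranked like the monocyte sum in 4 groups, and Il1r2 and Il1rn did so in 2 each. This is a description of groups of 3 libraries and was not tested.

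**Figure D4:**
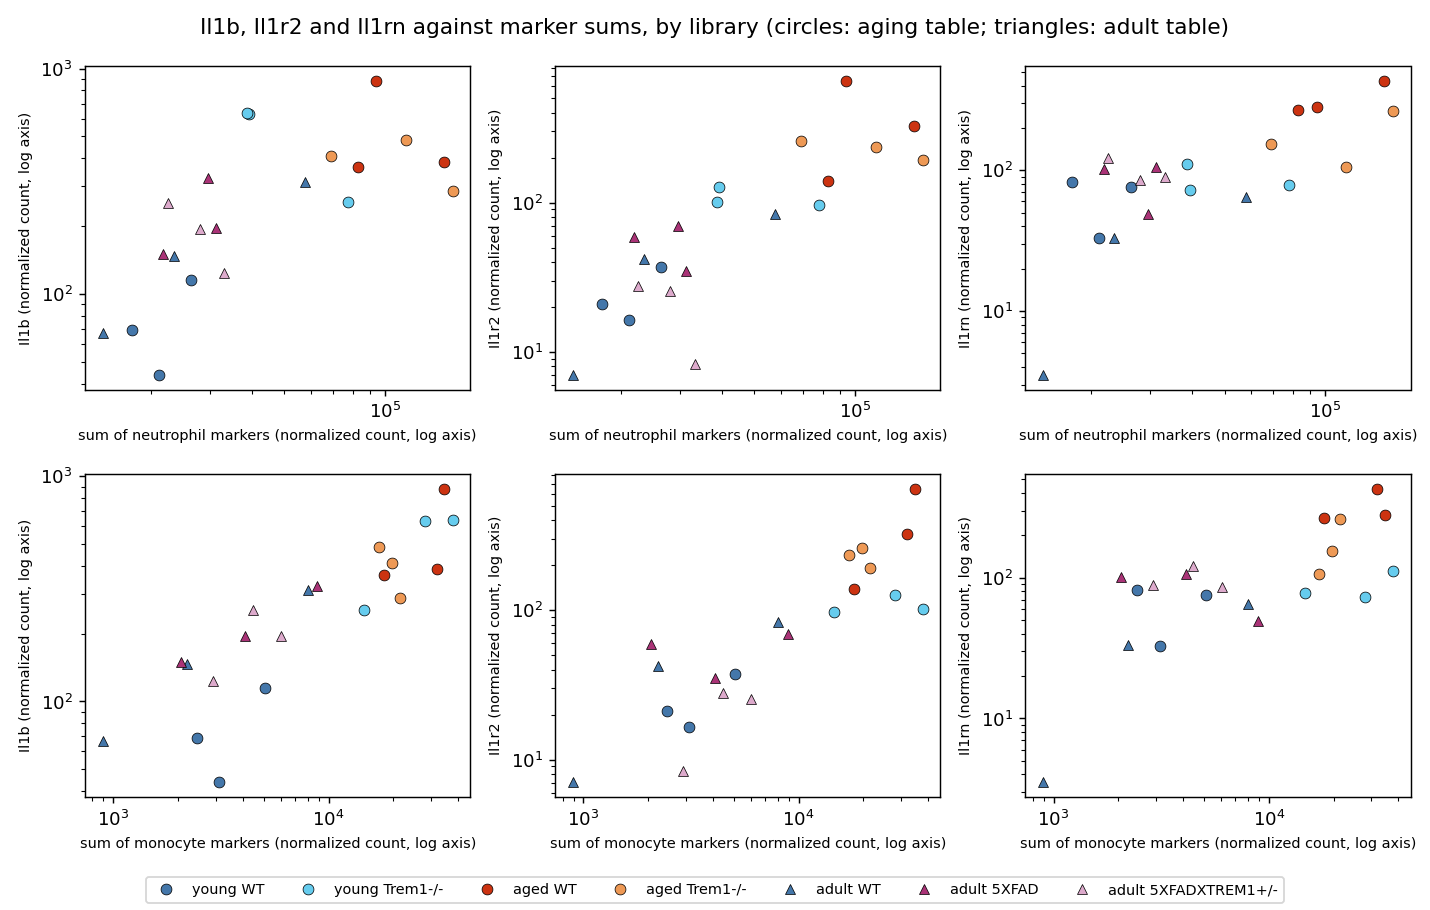
Normalized counts of Il1b, Il1r2 and Il1rn (vertical log axes) against the summed neutrophil markers (upper row) and monocyte markers (lower row, horizontal log axes), 1 point per library, circles for the aging table and triangles for the adult table. Among the circles, young WT lies at the lower left in each panel, and young Trem1-/- libraries reach Il1b of 638 with monocyte sums of up to 37767. Each table was normalized on its own, so circles and triangles are not compared in level.

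Genes of the pathway beyond the 10 members were read as lists. Of 14 other IL-1 family ligands, receptors and inhibitors, 8 could be tested, and with age in WT 3 rose and 1 fell (median log2 difference 1.18). Over all genes tested, 6.43% were called higher and 2.24% lower in this comparison. Il18rap and Il18r1, the 2 chains of the IL-18 receptor, rose by 2.74 ± 0.30 and 3.94 ± 0.90 log2 units (SE, limma adjusted p = 2.08e-06 and 0.00645), and Il1rap, the accessory chain of the IL-1 receptor, by 1.09 ± 0.28 (SE, limma adjusted p = 0.0151). Il18r1 was very low in young WT, at 5.60, 0 and 6.99 normalized counts (6, 0 and 8 reads), against 38.9, 65.1 and 70.7 in aged WT. The size of its difference therefore depends on the count of 1 added before taking log2. Il1rl1, the receptor for IL-33, fell by 0.97 log2 units (limma adjusted p = 0.0425). The count of 4 became 2 without young WT replicate 1 or 2 or aged WT replicate 1 or 3. IL-33 itself, Il33, was too low to test, as was Il1f10, and Il36a, Il36b, Il36g and Il36rn had no row under these symbols.

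Of 22 other inflammasome sensors, adaptors and pyroptosis genes, 20 were tested and 5 rose and 1 fell with age in WT (median 0.04). Pstpip1, which binds the sensor pyrin, rose by 2.57 ± 0.25 log2 units (SE, limma adjusted p = 5.07e-07), and Mefv, which encodes pyrin, by 2.74 ± 0.63 (SE, limma adjusted p = 0.013). Nlrp12 rose by 3.06 ± 0.56 and Gbp2, an interferon-induced GTPase of a family with similar copies between which reads could be split, by 1.45 ± 0.33 (SE). Nlrp1a, likewise one of a group of similar copies, rose by 0.71, and Aim2, a sensor of cytosolic DNA, fell by 0.61 log2 units. The count of 6 became 3 without aged WT replicate 1. Of 21 genes of IL-1 receptor signalling to NF-kB, 1 rose: Irak3, an inhibitor of that signalling, by 1.64 ± 0.25 log2 units (SE, limma adjusted p = 0.000106, list median 0.02), and 3 were called without aged WT replicate 2. Over all genes tested, 8.67% were called with age in WT, 6.43% higher and 2.24% lower. The 1 called of 21 signalling genes does not exceed that share.

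In young Trem1-/- against young WT, Il18rap rose (1.75 ± 0.30, SE), as did Pstpip1 (2.02 ± 0.25), Mefv (2.93 ± 0.63), Nlrp12 (2.47 ± 0.56), Gbp2 (1.28 ± 0.33) and Irak3 (1.49 ± 0.25), so that 1 of 8, 4 of 20 and 1 of 21 genes were called. The medians were 0.40, 0.15 and 0.03. Over all genes tested, 2.58% were called in this comparison and 2.36% were called higher. The 4 inflammasome genes became 2 without young WT replicate 2 or 3 and 1 without young Trem1-/- replicate 2 or 3, and the IL-1 family count became 2 without young Trem1-/- replicate 1. The interaction was called, as lower, for Il18rap (-2.04), Il1rap (-1.50), Pstpip1 (-2.25), Mefv (-4.03), Nlrp12 (-3.09) and Irak3 (-1.52), again 2 of 8, 3 of 20 and 1 of 21, with medians of -0.50, -0.11 and -0.12. For the interaction, 2.54% of all genes tested were called and 2.14% were called lower. The count of 2 became 1 with any library left out other than young WT replicate 3, young Trem1-/- replicate 1, aged WT replicate 2 or aged Trem1-/- replicate 1. The count of 3 became 1 without young Trem1-/- replicate 2 or 3 or aged WT replicate 1 or 3, and 6 without aged WT replicate 2, and the 1 signalling gene became 0 without young Trem1-/- replicate 2 or 3, aged WT replicate 3 or aged Trem1-/- replicate 3 and 3 without aged WT replicate 2. Young WT was the lowest group for Pstpip1, with 80.4 to 131 normalized counts against 389 to 511 in young Trem1-/-, 413 to 877 in aged WT and 456 to 617 in aged Trem1-/-. Limma called no gene of the 3 lists between the aged groups (1, 7 and 2 at an unadjusted p under 0.05, and 0 by edgeR and DESeq2) or with age in the libraries labelled Trem1-/- (2, 4 and 4 at an unadjusted p under 0.05, 0 by edgeR, and 0, 1 and 0 by DESeq2). Over all 16086 genes tested, 1545 and 2440 had an unadjusted p under 0.05 in these 2 comparisons.

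By likeness over the 12 aging libraries (Pearson's r of log2 values, 11503 genes compared, a description that shares libraries and groups), the genes nearest to Il1b were Cytip (0.982), Myof (0.977) and Adgre5 (0.977). Those nearest to Il1r2 were Hdc (0.969), Plaur (0.968) and Trim30b (0.964), and those nearest to Il1rn were A130014A01Rik (0.946), Rap1gap2 (0.930) and Ptpn11 (0.915). Gsdmd was nearest to Haghl (0.932) and Itgae (0.925), Casp1 to Fndc3b (0.922), Rnf149 (0.903) and Wfdc17 (0.903), and Pycard to Rpp25l (0.927), Retreg1 (0.924) and Zdhhc7 (0.918). For Il1a they were Lamtor3 (0.915), Trip10 (0.883) and Dkc1 (0.866), for Nlrp3 Dnajc11 (0.899), Gnl1 (0.869) and Gm12663 (0.861). For Casp4 they were Amt (0.880), B4galt3 (0.879) and Rbm10 (0.870), and for Il18 Nckap5los (0.846), Prkch (0.837) and Cacna1d (0.826). Among the members, Il1b was most alike to Il1r2 (0.887) and Casp1 (0.847) and ran against Gsdmd (-0.727), while r with Il1a was -0.257.

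The authors' deposited table compares young WT with aged Trem1-/-, which differ in both age and labelled genotype, and its positive values mean higher in WT. In the authors' deposited table, Il1r2 had a log2 fold change of -3.189 (standard error 0.4581, adjusted p = 8.483e-10), Il1b of -2.372 (0.3985, adjusted p = 3.563e-07) and Il1rn of -1.456 (0.4041, adjusted p = 0.008092), all higher in aged Trem1-/-. The other 7 members did not pass 0.05 in the authors' deposited table, where the smallest of their adjusted p-values was 0.182, for Il1a.

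In adult mice, no member passed the test between 5XFAD and WT. Limma called 0 of 10 members over 17025 genes tested, where 1.98% of all genes were called, 1.62% higher and 0.364% lower, and edgeR and DESeq2 called 0 members each. At an unadjusted p under 0.05 there were 5: Il1a and Il1rn with higher means in 5XFAD, and Il18, Nlrp3 and Gsdmd with lower means. Over all genes tested, 2573 of 17025 had such a p. The members' median log2 difference was -0.06, beside 0.00 for all genes tested.

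**Figure D5:**
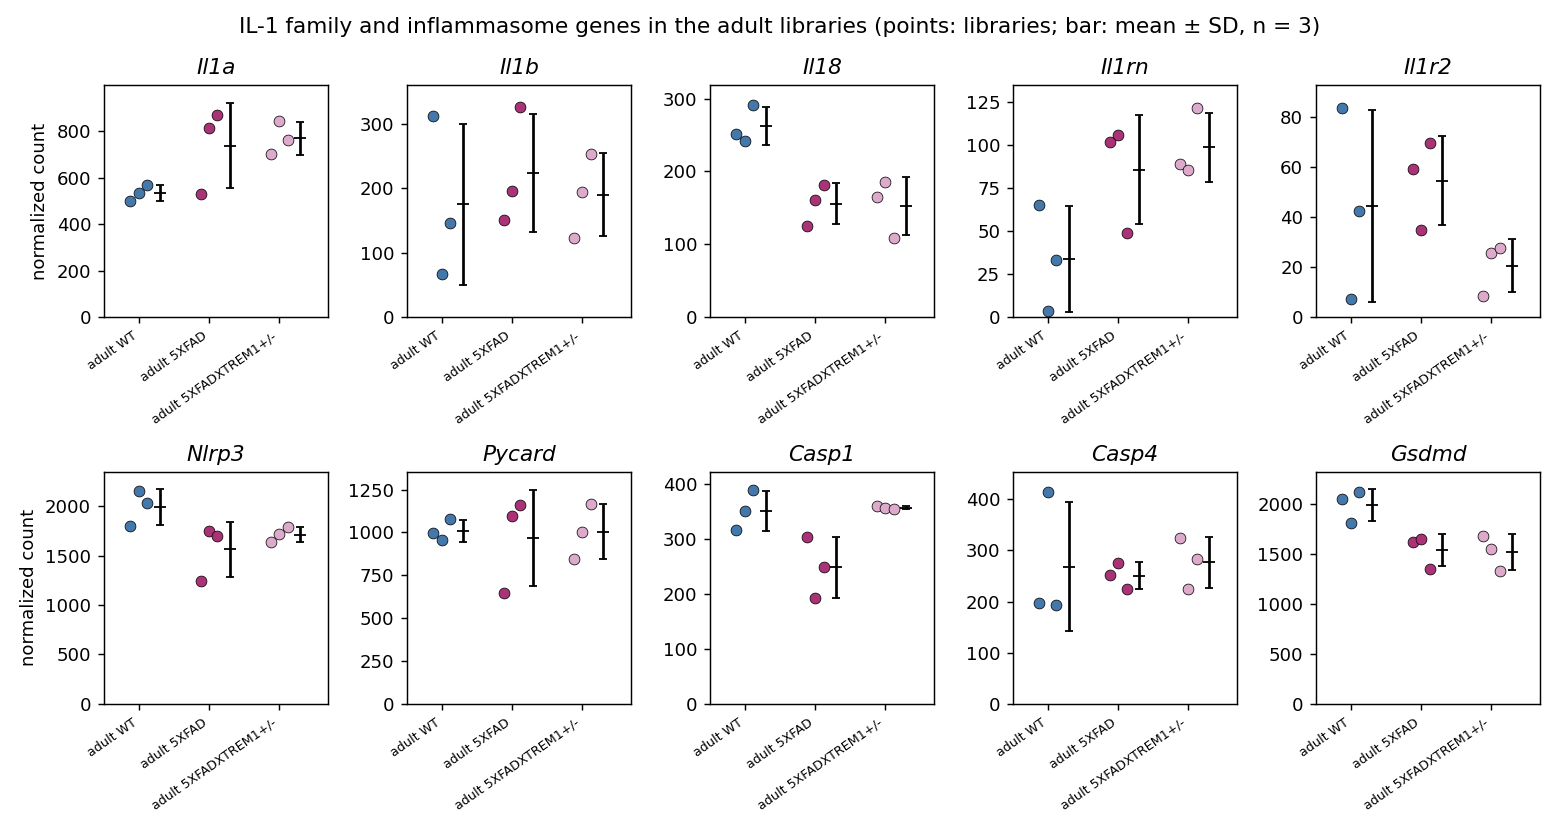
Normalized counts (vertical axes, from 0) of the 10 members in the 3 adult groups, with points for libraries and a bar for the mean ± SD (n = 3). Il18 lies between 243 and 292 in WT and between 108 and 185 in both 5XFAD groups, and the 3 WT libraries are far apart for Il1b, Il1rn and Il1r2.

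Il18 held 252, 243 and 292 normalized counts in adult WT, 125, 161 and 181 in 5XFAD and 165, 185 and 108 in 5XFADXTREM1+/-. Both 5XFAD groups lay wholly below WT, but the log2 differences from WT of -0.76 ± 0.33 and -0.81 ± 0.33 (SE) had limma adjusted p = 0.275 and 0.216. Gsdmd showed the same arrangement, with 2048, 1813 and 2116 in WT, 1617, 1647 and 1352 in 5XFAD and 1685, 1551 and 1328 in 5XFADXTREM1+/- (log2 differences -0.37 and -0.39, each ± 0.14, limma adjusted p = 0.213 and 0.159). Nlrp3 held 1800, 2153 and 2031 in WT, 1247, 1753 and 1700 in 5XFAD and 1641, 1717 and 1788 in 5XFADXTREM1+/-. Its 5XFAD and WT libraries did not overlap, and the log2 difference was -0.36 ± 0.15 (SE, limma adjusted p = 0.25). Genes with groups that did not overlap were not counted over all genes of the adult table.

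Il1a held 498, 532 and 570 normalized counts in adult WT, 528, 813 and 871 in 5XFAD and 702, 841 and 763 in 5XFADXTREM1+/-. One 5XFAD library lay within the WT range, and all 5XFADXTREM1+/- libraries lay above it (log2 differences from WT 0.43 ± 0.20 and 0.52 ± 0.20, SE, limma adjusted p = 0.316 and 0.191). Il1b held 312, 66.8 and 147 in WT, 150, 196 and 327 in 5XFAD and 123, 194 and 254 in 5XFADXTREM1+/-. The WT libraries alone spanned more than a 4-fold range, and the log2 difference of 0.55 between 5XFAD and WT has an interval of -0.48 to 1.58, becoming -0.01 without WT replicate 2.

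Il1rn held 64.9, 3.52 and 33.2 in adult WT, 102, 106 and 49.0 in 5XFAD and 88.9, 85.7 and 122 in 5XFADXTREM1+/-. The value of 3.52 rests on only 3 reads. The log2 differences from WT were 1.92 ± 0.78 and 2.18 ± 0.78 (SE, limma adjusted p = 0.25 and 0.157), and without WT replicate 2 they were 0.79 and 1.05. When low genes were kept in the fit, the difference between 5XFADXTREM1+/- and WT passed for Il1rn (limma adjusted p = 0.0484). Il1r2 held 83.6, 7.03 and 42.2 in WT, 59.3, 34.9 and 69.5 in 5XFAD and 8.37, 25.5 and 27.8 in 5XFADXTREM1+/-, and in this last group its mean per kilobase lay below that of Il1rn, the reverse of the order in the other groups. WT replicate 2 was the lowest WT library and WT replicate 1 the highest for Il1b, Il1rn and Il1r2.

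The same 2 libraries were the extremes for blood cell markers. Neutrophil sums in adult WT were 57793, 14307 and 23355 normalized counts and monocyte sums 8001, 892 and 2210, in replicate order. In 5XFAD the sums ranged from 21746 to 31231 and from 2064 to 8875, and in 5XFADXTREM1+/- from 22397 to 33121 and from 2912 to 6032. None of these markers was called between 5XFAD and WT by limma, edgeR or DESeq2, and 0 had an unadjusted p under 0.05. Their part in the spread of Il1b, Il1rn and Il1r2 was not tested.

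Casp1 held 316, 350 and 389 in adult WT, 304, 192 and 249 in 5XFAD and 360, 356 and 355 in 5XFADXTREM1+/-. The 5XFAD libraries were below those of both other groups, with log2 differences of -0.52 ± 0.25 from WT and, for 5XFADXTREM1+/- against 5XFAD, of 0.55 ± 0.25 (SE, limma adjusted p = 0.335 and 0.931). Pycard (995, 955 and 1080 in WT, 645, 1095 and 1161 in 5XFAD, 846, 1003 and 1165 in 5XFADXTREM1+/-) overlapped between all groups. Casp4 (197, 415 and 194 in WT, 252, 276 and 225 in 5XFAD, 324, 224 and 282 in 5XFADXTREM1+/-) overlapped as well, with WT replicate 2 the highest of all.

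Between 5XFADXTREM1+/- and 5XFAD, limma called 0 of 10 members, where 0% of all genes tested were called, with 1 member, Casp1, at an unadjusted p under 0.05. Between 5XFADXTREM1+/- and WT it called 0 of 10, where 2.78% of all genes were called and 2.04% were called higher, with 4 members, Il1a, Il1rn, Il18 and Gsdmd, at an unadjusted p under 0.05. Over all 17025 genes tested, 883 and 2707 had such a p in these 2 comparisons. edgeR and DESeq2 called 0 members in each. The members' medians were 0.09 and 0.00, beside 0.02 and 0.02 for all genes tested. The widest intervals were those of Il1r2, in 5XFADXTREM1+/- against 5XFAD -3.32 to 0.37 around -1.47 log2 units. The 2 comparisons with WT share the WT libraries.

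Of the other pathway genes in the adult table, the IL-1 receptor gene Il1r1 was higher with 5XFAD. Il1r1, the signalling receptor for IL-1alpha and IL-1beta, held 39.6, 27.0 and 48.2 normalized counts in WT, 223, 166 and 185 in 5XFAD and 136, 107 and 140 in 5XFADXTREM1+/-. All 6 libraries with 5XFAD were above all WT libraries. Il1r1 rose by 2.32 ± 0.42 log2 units in 5XFAD and by 1.74 ± 0.42 in 5XFADXTREM1+/- (SE, limma adjusted p = 0.00833 and 0.0324), 1 of 7 genes tested in its list each time (medians 0.18 and 0.55). The first call held with each library left out, and the second was lost without WT replicate 1 or 2 or any one of the 5XFADXTREM1+/- libraries. Over all genes tested, 1.62% were called higher and 0.364% lower in 5XFAD against WT. In 5XFADXTREM1+/- against WT, 2.04% were called higher. The summed level of 6 choroid plexus markers was 2360 to 6849 in WT, 15176 to 82814 in 5XFAD and 18624 to 104718 in 5XFADXTREM1+/-, and that of 10 microglial markers was 349477 to 379014, 275667 to 312553 and 330885 to 377523. In 5XFAD against WT, limma called 2 microglial markers lower and 1 higher of 10 (9 had an unadjusted p under 0.05), and 2 of 11 tested genes of handling and immediate early response higher. The microglial count of 3 became 1 without WT replicate 1 or 2 and 6 without 5XFAD replicate 2, and the handling count of 2 became 1 without WT replicate 1 or 3 or 5XFADXTREM1+/- replicate 3 and 0 without WT replicate 2 or 5XFAD replicate 2 or 3. The part of these markers in the adult results was not tested. Tab2, an adaptor of the kinase TAK1, fell by 0.51 log2 units in 5XFAD (limma adjusted p = 0.02), 1 of 21 signalling genes (median -0.01), a call lost without WT replicate 1 or 2 or 5XFAD replicate 1 or 2. Of the 20 inflammasome genes tested, limma called none in the adult comparisons (3 for 5XFAD, 1 for 5XFADXTREM1+/- against 5XFAD and 2 for 5XFADXTREM1+/- against WT at an unadjusted p under 0.05, and 0 by edgeR and DESeq2), with medians from -0.11 to 0.05. In the same order, 2573, 883 and 2707 of all 17025 genes tested had an unadjusted p under 0.05.

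Over the 9 adult libraries (11797 genes compared), Il1rn was most alike to Ctse (0.988), Gstm1 (0.978) and Rragd (0.971), and Casp1 to Ugcg (0.984), Tmem30a (0.972) and Tbl1x (0.959). Il1b was nearest to Emilin2 (0.946), Flot2 (0.936) and Bst1 (0.929), and Il1r2 to Prkag2 (0.928), Dexi (0.925) and Gm13408 (0.925). For Il1a the nearest were Blm (0.954), Abcb1b (0.944) and Anxa4 (0.943), for Il18 Nhs (0.951), Clk1 (0.951) and C5ar2 (0.949), and for Gsdmd Mcu (0.959), Plcl2 (0.955) and Zfp36l2 (0.953). For Nlrp3 they were Zfp286 (0.945), Ppp1r18 (0.944) and Mfap3 (0.944), for Pycard they included Smarcc2 (0.915) and Tmpo (0.910), and for Casp4 Ndufa9 (0.933), Ankrd17 (0.923) and Decr2 (0.899). Among the members, Il1b and Il1r2 had r = 0.791 here and 0.887 in the aging table, and Il18 and Gsdmd 0.793 here and 0.499 there. These values describe shared variation among libraries, groups included.

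In the authors' deposited table for adult WT against 5XFAD, no member passed 0.05 either. The smallest adjusted p of the 10 in the authors' deposited table was 0.1424, for Gsdmd, with a log2 fold change of 0.3739 (standard error 0.1489), higher in WT.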

How the data were processed

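RNA from primary brain microglia was sequenced in 21 libraries, 3 in each of 7 groups. Per the submitters' processing notes, fastp, HISAT2 2.0.5, featureCounts 1.5.0-p3 and DESeq2 1.20.0 were used with GRCm38. The annotation release and strandedness are not given in the sources used here. The deposited per-library columns are a normalized signal: the authors' read counts scaled by each library's size factor. Undoing that scaling returned whole reads, to within 0.05 read, for 99.9956% or more of the nonzero entries. The deposited tables also hold the authors' log2 fold changes, a score (the Wald statistic) and p-values.

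Genes with a mean of at least 10 normalized counts over a table were tested in R 4.3.3 with limma 3.58.1, using its trend and robust options, after taking log2 of the normalized count + 1, all groups of a table in 1 fit, with Benjamini-Hochberg adjustment over all genes and a threshold of 0.05. Fold changes and intervals are on that scale, which understates changes of low genes. An exact permutation test of 3 against 3 libraries cannot go below a two-sided p of 0.1, so none is given. Groups that do not overlap reach only this limit, so lack of overlap is given as a description. The share of all genes tested without overlap was not counted. edgeR 4.0.16 and DESeq2 1.42.0 on recovered reads, other pseudocounts, filters and scalings, a replicate block and each library left out in turn were alternatives.

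The members, the pathway and marker lists and the tests were chosen with earlier results of these data known. All 10 members are described in every comparison. Of each pathway list the 3 genes with the smallest adjusted p past the threshold are named, and of each marker list up to 2. Il1rl1, Mefv, Nlrp1a and Aim2 with age in WT and Gbp2 in young mice were named after their values were seen. Likeness lists give the 3 genes with the largest r among genes with a mean of at least 50. A few genes that this rule or the marker lists hold are not reported here. Promoters came from RefSeq, without an entry for Gsdmd.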

Additional observations from a re-analysis of the deposited data

Results flagged for a closer look

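For 2 members the effect of age differed between the libraries labelled WT and those labelled Trem1-/-, by the interaction term of the limma fit. The interaction was -3.0932 log2 units for Il1b and -2.5952 for Il1r2. With age, Il1b rose by 2.81 log2 units in WT and had a difference of -0.28 in Trem1-/-, and Il1r2 rose by 3.66 in WT and had a difference of 1.07 in Trem1-/-. Trem1 itself had an interaction of -3.40 log2 units and was highest in aged WT, at 188 to 269 normalized counts, and lowest in young WT, at 7.65 to 25.2.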

How the results depend on the processing

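Of 80 differences (10 members in 8 comparisons), 8 were called, and none of these 8 changed sign under any alternative run. Of 1657 alternative values, 1579 kept direction and side of the threshold, 27 lost the call, 1 gained one and 50, over 28 differences that were not called, changed sign. Without trend and robust estimation, 0 members were called for young Trem1-/- against young WT and 0 for the interaction. Without the filter on low genes, 1 was called for 5XFADXTREM1+/- against WT. With 1 library left out, the interaction called 0 to 2 members. The cause of these shifts was not tested.

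Same-numbered libraries of different groups did not in general deviate together (median r 0.01195 in the aging and 0.01164 in the adult table, against -0.01728 and -0.01167 for other pairs). Their r ranged from -0.1359 to 0.09878 in the aging and from -0.03283 to 0.2031 in the adult table. No pairing by number was thus seen, but correlations over all genes cannot exclude one that touches some genes. With the replicate block, the interaction called 1 member instead of 2, Il1b then having limma adjusted p = 0.0605, and no other member call changed.

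Sign changes of uncalled log2 differences came with edgeR (0.0013), and DESeq2 (0.0215) for Casp4 with age in Trem1-/-, with edgeR (0.0042) and TMM scaling (0.0024) for Gsdmd in 5XFADXTREM1+/- against 5XFAD, and with edgeR (0.0008) for Pycard in 5XFADXTREM1+/- against WT. Leaving out 1 library gave the following ranges. For aged WT against young WT, Nlrp3 ranged from -0.0181 to 0.0672. For aged Trem1-/- against aged WT the ranges were -0.60 to 0.0331 for Il1b, -1.02 to 0.0912 for Il1r2, -0.40 to 0.0837 for Il18, -0.26 to 0.0338 for Nlrp3, -0.0987 to 0.0942 for Casp1, -0.26 to 0.0089 for Pycard and -0.13 to 0.47 for Casp4. For aged against young Trem1-/- they were -0.29 to 0.15 for Il18, -0.0839 to 0.21 for Nlrp3 and -0.20 to 0.26 for Casp4, and for the interaction -0.12 to 0.17 for Nlrp3. For 5XFAD against WT they were -0.0096 to 1.095 for Il1b, -0.18 to 1.52 for Il1r2, -0.26 to 0.16 for Pycard and -0.19 to 0.35 for Casp4. For 5XFADXTREM1+/- against 5XFAD they were -0.13 to 0.23 for Il1a, -0.47 to 0.0870 for Il1b, -0.0942 to 0.46 for Il1rn, -0.20 to 0.18 for Il18, -0.0103 to 0.24 for Nlrp3, -0.18 to 0.25 for Pycard and -0.11 to 0.0763 for Gsdmd. For 5XFADXTREM1+/- against WT they were -0.23 to 0.87 for Il1b, -1.65 to 0.0482 for Il1r2, -0.0487 to 0.10 for Casp1, -0.13 to 0.0993 for Pycard and -0.0625 to 0.48 for Casp4.

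Counts over all genes, the background of the members' counts, moved more. Without trend and robust estimation they went from 1394 to 581 for age in WT, 415 to 97 for young Trem1-/-, 275 to 12 for age in Trem1-/-, 408 to 5 for the interaction, 337 to 32 for 5XFAD and 473 to 27 for 5XFADXTREM1+/- against WT. DESeq2 called 648, 605, 776, 778 and 1061 in the last 5 of these, 30 between the aged groups and 16 between the 5XFAD groups, edgeR 206 for 5XFAD, the fit of only the groups compared 649 and 743 for young Trem1-/- and 5XFADXTREM1+/- against WT, the fit without a filter 795 and 952 and the replicate block 628 and 848 for 5XFAD and 5XFADXTREM1+/- against WT. With 1 library left out, age in WT gave 860 (young WT replicate 2), 783 and 733 (aged WT replicates 1 and 3), and young Trem1-/- 234 and 259 (young WT replicates 2 and 3) and 225 and 226 (young Trem1-/- replicates 2 and 3). Age in Trem1-/- gave 94, 93, 95 and 182 (young, then aged, replicates 2 and 3), 5XFAD 137 (WT replicate 2), 134 and 220 (5XFAD replicates 1 and 2), and 5XFADXTREM1+/- against WT 169 (WT replicate 2), 282 and 122 (5XFADXTREM1+/- replicates 2 and 3). The interaction gave 196 (aged WT replicate 3) to 787 (aged WT replicate 2).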
